A study of Mus musculus with 12 samples.

Results

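Horizontal cell genes were followed in whole retinas of diabetic and control mice as 8 of the 24570 named genes of the array table. The 8 were set by symbol, as genes known from horizontal cells, with no measured value in the rule: Lhx1, Onecut1, Onecut2, Onecut3 and Prox1, which are transcription factors, and Calb1, Septin4 (older symbol Sept4) and Gja10, which mark the mature cell. All 8 had a line in the table. The diabetic group held 6 male C57Bl6/J mice that were given streptozotocin into the peritoneum (160 mg/kg) at 8 weeks of age and 24 to 26 g, which destroys the pancreatic beta cells and so models insulin-deficient diabetes. Diabetes was accepted on day 7 if glucose exceeded 15 mM, and the sample descriptions place the arrays 6 weeks after induction. The control group held 6 normoglycaemic mice of the same strain that received no streptozotocin. Since the series' design text gives the age of diabetic mice as 6 weeks, before the stated age at injection, the age at death is not settled here. Each animal gave 1 array, and both groups were housed alike on standard chow with a daily light and dark phase.

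Horizontal cells are inhibitory interneurons of the outer retina. Their dendrites and axon terminals contact cones and rods, and they feed back onto photoreceptors, which sharpens contrast at the first synapse of vision. They are a small share of retinal cells, are coupled to each other by gap junctions, and arise from progenitors in which Foxn4 and Ptf1a open a path to inhibitory fates, Onecut1 and Onecut2 steer cells towards the horizontal fate, Prox1 is needed for it, and Lhx1 places the cells in their layer. None of these genes is a private label: Calb1 is also made by some amacrine and ganglion cells, Prox1 by amacrine and bipolar cells, and Onecut1 and Onecut2 by ganglion cells. In bulk retina, fewer cells of a type and less RNA per cell cannot be told apart. Nor do the arrays show which cells the RNA of a member came from, Septin4 included.

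Septin4 was the member that differed between the groups, and RefSeq gives it several transcript starts, so the sequences before those starts are shown here. Among the RefSeq promoter windows of GRCm38.p6, 5 of the 8 members had a window used here (9 windows in all, 4 of them of Septin4). Windows on the chromosome of Onecut2 were not used for the members but stayed in the counts over all genes. One of the 4 begins 31 bases after another and is left out below. Each line gives the 250 bases before a start, 5′ to 3′, and capitals mark CCAAT, a common promoter element.
Septin4 start at chr11:87566439-87566688 (+): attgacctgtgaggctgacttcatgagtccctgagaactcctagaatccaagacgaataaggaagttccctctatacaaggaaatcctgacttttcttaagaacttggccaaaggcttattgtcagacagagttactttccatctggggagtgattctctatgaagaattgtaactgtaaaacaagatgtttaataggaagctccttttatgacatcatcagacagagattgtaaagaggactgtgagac
Septin4 start at chr11:87578139-87578388 (+): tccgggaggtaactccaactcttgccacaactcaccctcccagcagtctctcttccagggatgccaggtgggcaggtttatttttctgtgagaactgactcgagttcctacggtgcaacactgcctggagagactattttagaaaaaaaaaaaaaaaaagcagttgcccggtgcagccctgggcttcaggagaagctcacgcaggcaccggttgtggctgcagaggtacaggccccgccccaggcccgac
Septin4 start at chr11:87580811-87581060 (+): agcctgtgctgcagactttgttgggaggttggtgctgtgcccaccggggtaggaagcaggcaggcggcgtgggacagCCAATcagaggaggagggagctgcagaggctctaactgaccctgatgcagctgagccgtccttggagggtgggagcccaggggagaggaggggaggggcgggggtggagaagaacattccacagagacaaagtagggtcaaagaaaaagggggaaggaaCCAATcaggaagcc
The first and last of these starts lie 14372 bases apart, and the array table does not say from which start the measured RNA came. CCAAT (or ATTGG on the other strand) was present in 2 places of the third sequence and absent from the others, and 33.8% of the 32851 windows of all genes held it. It was also present once in the window of Lhx1. TATAAA, on either strand, was in 2 of the 9 windows, those of Gja10 and of 1 of the 2 starts of Prox1, against 12.4% of all windows. Of the motifs of the members' own families, ATTGAT on either strand, a core bound by Onecut proteins, was in 0 of the 9 windows against 6.72% of all, and TAATTA, a core bound by LIM homeodomain proteins such as Lhx1, in 0 of the 9 against 4.84%. No matches overlapped. At shares as low as those of ATTGAT and TAATTA, 0 of 9 windows is a common outcome, so these counts set the members apart from no other genes. A missing match says only that these letters are not in this window.

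The values are log2 RMA levels, in which a difference of 1 is a doubling. All 12 arrays share 1 distribution, whose median is 5.73 (lowest 5.07, highest 14.10), and pairs of arrays correlated at 0.993 to 0.998 over genes. RMA draws differences of dim genes towards 0. Of the members, 6 had a mean at or above the array median, though Onecut1 (5.94) and Onecut2 (5.82) were only a little above it. Lhx1 and Gja10 lay below the median. In the adult retina these are the members most nearly restricted to horizontal cells, so the most specific members were measured near the level where differences are hardest to see. The animal numbers in the sample descriptions are all lower in the diabetic than in the control group, and what they mark is not given; a cohort effect and diabetes cannot be told apart.

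Diabetic retinas had less Septin4 RNA, and none of the other 7 members passed the test. Septin4, a filament-forming GTPase, fell by 0.24 ± 0.06 on the log2 scale (SE, 0.847-fold, n = 6 per group; limma adjusted p = 0.0475, 95% interval -0.37 to -0.11). The adjusted p missed the threshold in 10 of 12 fits with 1 array removed, with cyclic loess normalization (adjusted p = 0.0537), with the lens level as a covariate (0.0767) and without both arrays of highest lens level (0.0711), with the change below 0 each time. Over all genes, 1.77% passed with a fall, 1.47% with a rise and 3.24% in either direction, at a limma adjusted p under 0.05, so 1 call among 8 members is a result about Septin4 and not about the set. No member's groups were free of overlap, where 2.84% of all genes had groups that did not overlap. At an unadjusted p under 0.05 there were 2 members, Septin4 and Prox1, against 21% of all genes. The changes of the 8 ran from -0.24 to 0.03, with 5 below 0 and a median of -0.03. Over all genes 51.9% were below 0 and the median change was -0.0018. The median absolute change was 0.04 in the members, against 0.03 over all genes and 0.07 over genes with a mean at or above the array median, where 6 of the 8 lie.

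**Figure D1:**
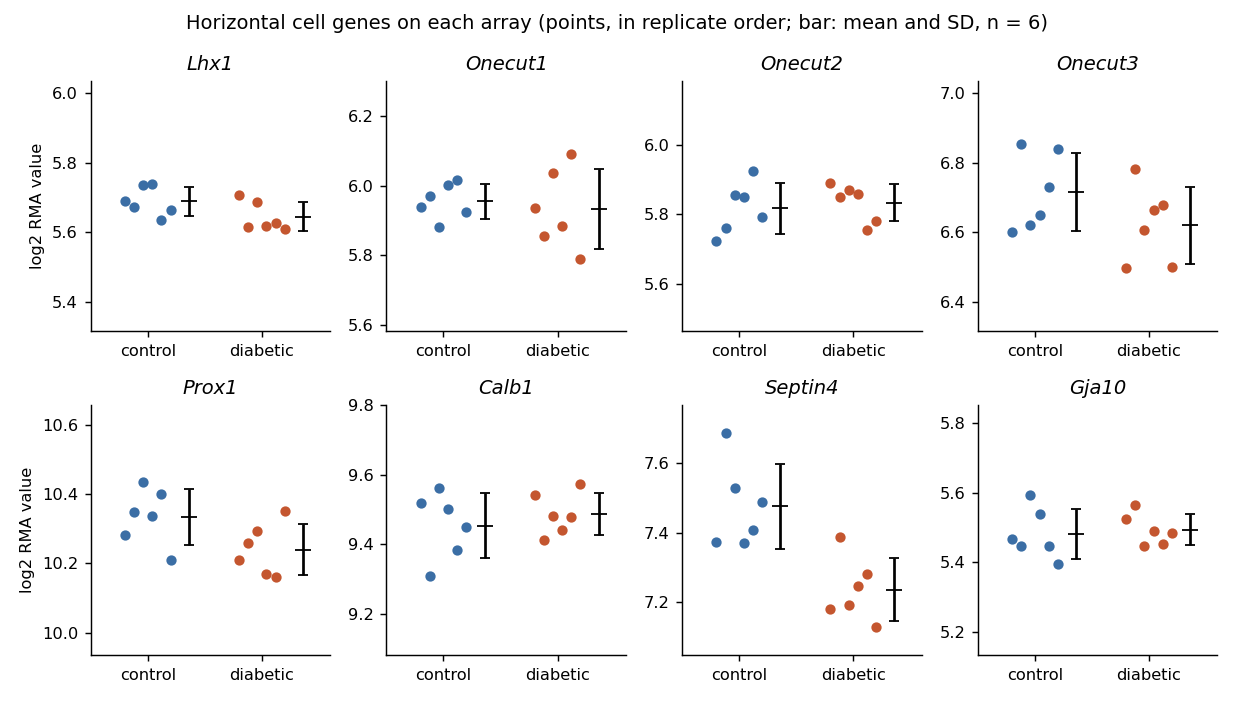
Log2 RMA value (vertical axis, the same span in each panel) of the 8 horizontal cell genes on the 6 control (blue) and 6 diabetic (orange) arrays, one point per animal, with the mean and SD beside them. Of the diabetic points, 5 lie below all controls for Septin4 and at most 4 for any other gene.

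Among the transcription factors, Lhx1, a LIM homeodomain protein that sets the laminar position of horizontal cells, ran from 5.64 over a median of 5.68 to 5.74 in controls and from 5.61 over 5.62 to 5.71 in diabetic retinas. Of the diabetic arrays, 4 lay below all controls, and diabetic 1 was the only one above the control mean. The difference was -0.05 ± 0.02 (limma adjusted p = 0.304; 95% interval -0.10 to 0.01). Both groups lay close to or below the array median, where differences are compressed.

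The Onecut proteins carry a cut domain and a homeodomain. Onecut1 ran from 5.88 over a median of 5.95 to 6.02 in controls and from 5.79 over 5.91 to 6.09 in diabetic retinas. Diabetic values were the more spread, with an SD of 0.11 against 0.05 (not tested), and 2 diabetic arrays lay below and 2 above all controls. The difference was -0.02 ± 0.05 (adjusted p = 0.837; 95% interval -0.13 to 0.08), and its sign turned in 3 of the alternatives, among them the run without diabetic 6 (0.0066). Onecut2, which acts together with Onecut1, ran from 5.72 over 5.82 to 5.92 in controls and from 5.75 over 5.85 to 5.89 in diabetic retinas. Every diabetic array lay within the control range. Its difference was 0.02 ± 0.04 (adjusted p = 0.832; 95% interval -0.06 to 0.09), and it was -0.0020 without control 1. Onecut1 and Onecut2 both lay close to the array median, where differences are compressed.

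Onecut3, the remaining Onecut gene, ran from 6.60 over 6.69 to 6.85 in controls and from 6.50 over 6.63 to 6.78 in diabetic retinas. Diabetic 1 and diabetic 6 lay below all controls, and diabetic 2 was the only diabetic array above the control mean. The difference of -0.10 ± 0.06 did not pass (adjusted p = 0.395; 95% interval -0.23 to 0.04).

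Prox1, a homeodomain protein that drives progenitors out of the cell cycle and is needed to form horizontal cells, ran from 10.21 over 10.34 to 10.43 in controls and from 10.16 over 10.23 to 10.35 in diabetic retinas. Diabetic 4 and diabetic 5 lay below all controls, and 5 of the 6 diabetic arrays were below the control mean. The difference was -0.09 ± 0.04 (unadjusted p = 0.0467, limma adjusted p = 0.230; 95% interval -0.19 to -0.0016). A fall larger than 0.19 lies outside this interval, which belongs to the fit without a lens term. With the lens level as a covariate the difference was larger, at -0.12 ± 0.04 (limma adjusted p = 0.135). Without both arrays of highest lens level it was -0.13 ± 0.04 (limma adjusted p = 0.169). Diabetic 6, the array of highest lens level, was the only diabetic array above the control mean. The part of lens RNA in the Prox1 values was not tested.

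Among the markers of the mature cell, Calb1, which encodes the calcium buffer calbindin, ran from 9.31 over a median of 9.47 to 9.56 in controls and from 9.41 over 9.48 to 9.57 in diabetic retinas. Of the diabetic arrays, 5 lay within the control range and diabetic 6 just above it. The difference was 0.03 ± 0.04 (adjusted p = 0.697; 95% interval -0.06 to 0.13).

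Gja10, a gap junction protein (connexin) that couples horizontal cells, ran from 5.39 over 5.46 to 5.59 in controls and from 5.45 over 5.49 to 5.56 in diabetic retinas, all below the array median. Every diabetic array lay within the control range. The difference of 0.01 ± 0.03 (adjusted p = 0.874; 95% interval -0.06 to 0.08) turned its sign in 3 alternatives, among them the runs without control 6 (-0.0051) and without diabetic 2 (-0.0020). At this level the array may not have measured the gene, and a missing call does not show that it was unchanged.

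Septin4 is given array by array, since the comparison turns on it. The 6 controls measured 7.37, 7.69, 7.53, 7.37, 7.41 and 7.49 in the order of their replicate numbers. The 6 diabetic retinas measured 7.18, 7.39, 7.19, 7.25, 7.28 and 7.13. All 6 diabetic arrays were below the control mean of 7.48 ± 0.12 (SD), and 5 of them lay below every control. Diabetic 2, at 7.39, was above control 1 and control 4 (both 7.37), and control 2 stood highest. The diabetic mean was 7.24 ± 0.09 (SD).

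The size of the Septin4 difference was steadier than its call. Leaving out 1 array at a time gave changes from -0.27 to -0.20, and the call held without control 4 (limma adjusted p = 0.0461) and without diabetic 2 (0.0308). It was lost in the other 10 of the 12 runs. The adjusted p rose to 0.0552 when control 1 was left out, 0.0611 for control 2, 0.0883 for control 3, 0.0516 for control 5 and 0.0875 for control 6. It was 0.0886 without diabetic 1, 0.0923 without diabetic 3, 0.0835 without diabetic 4, 0.0670 without diabetic 5 and 0.0876 without diabetic 6. Each such run has fewer arrays, and the number of genes called over the whole table changed with it, from 325 to 835.

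**Figure D2:**
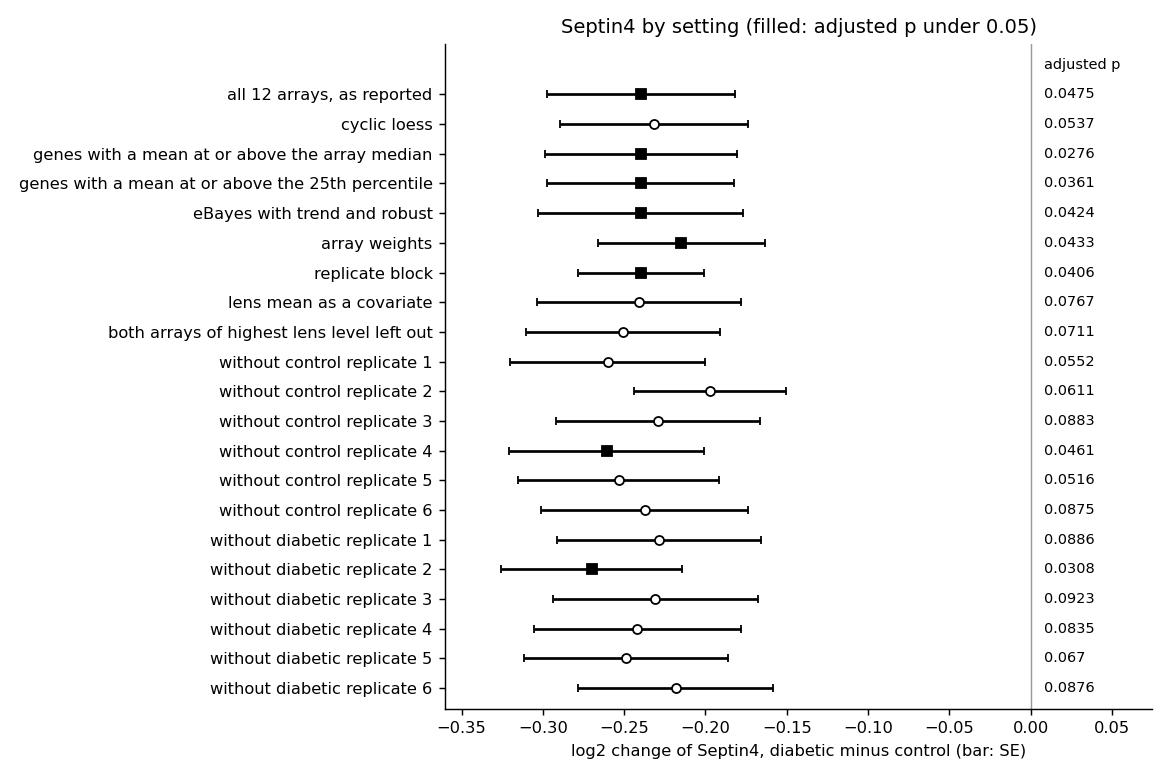
Log2 change of Septin4, diabetic minus control (horizontal axis, bar: SE), with all 12 arrays and under each alternative setting, with the limma adjusted p at the right and filled squares where it was under 0.05. All values lie between -0.27 and -0.20, on both sides of the threshold.

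Lens RNA varied between arrays alongside this comparison. The mean log2 level of 13 lens markers, 12 of them with values above 0 in the difference but 0 past the test (1 at an unadjusted p under 0.05), ran from 6.10 to 6.74 in controls and from 5.97 to 7.73 in diabetic retinas. Diabetic 6 (7.73) and diabetic 2 (7.20) stood highest, and these 2 arrays held the lowest and the highest diabetic value of Septin4. With the lens mean as a covariate the change of Septin4 was -0.24 ± 0.06 (adjusted p = 0.0767), and without both arrays it was -0.25 ± 0.06 (adjusted p = 0.0711). The size was thus as large either way, while the call was lost. The mean of 8 pigment epithelium markers ran from 6.34 to 7.03 in controls and from 6.38 to 7.59 in diabetic retinas, again highest in diabetic 6. Its part in the result was not tested.

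Marker means of the other cells that express some of the members overlapped between the groups. The mean of 10 ganglion cell markers ran from 7.83 to 8.08 in controls and from 7.82 to 8.04 in diabetic retinas, with 0 past the limma test and 2 at an unadjusted p under 0.05. The mean of 11 amacrine cell markers ran from 7.87 to 8.09 and from 7.86 to 7.99, with 2 at an unadjusted p under 0.05, of which Dab1 alone passed the test (-0.25 ± 0.06, adjusted p = 0.0414; lost in 10 of the 12 runs without 1 array). The mean of 10 bipolar cell markers ran from 9.63 to 9.76 and from 9.61 to 9.73, with 0 past the test and 4 at an unadjusted p under 0.05. The cells that drive horizontal cells were measured too. The mean of 8 rod markers ran from 12.61 to 12.70 in controls and from 12.59 to 12.69 in diabetic retinas, with 0 past the test, also at an unadjusted p under 0.05. The mean of 8 cone markers ran lower in diabetic retinas, from 9.54 to 9.69 against 9.64 to 9.80, with group means of 9.60 and 9.70. Of these markers 2 had an unadjusted p under 0.05, and 1 of them, cone arrestin (Arr3), passed (-0.30 ± 0.07, adjusted p = 0.0348; lost in 8 of the 12 runs). The other was Pde6h, a subunit of the cone phosphodiesterase (-0.25 ± 0.07, adjusted p = 0.0728). The mean of 8 Mueller glia markers ran from 10.29 to 10.62 and from 10.35 to 10.57, with 0 past the test and 1 at an unadjusted p under 0.05. The mean of the 4 red blood cell markers measured, of 5 listed, lay between 5.27 and 5.31 on all arrays, below the array median.

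**Figure D3:**
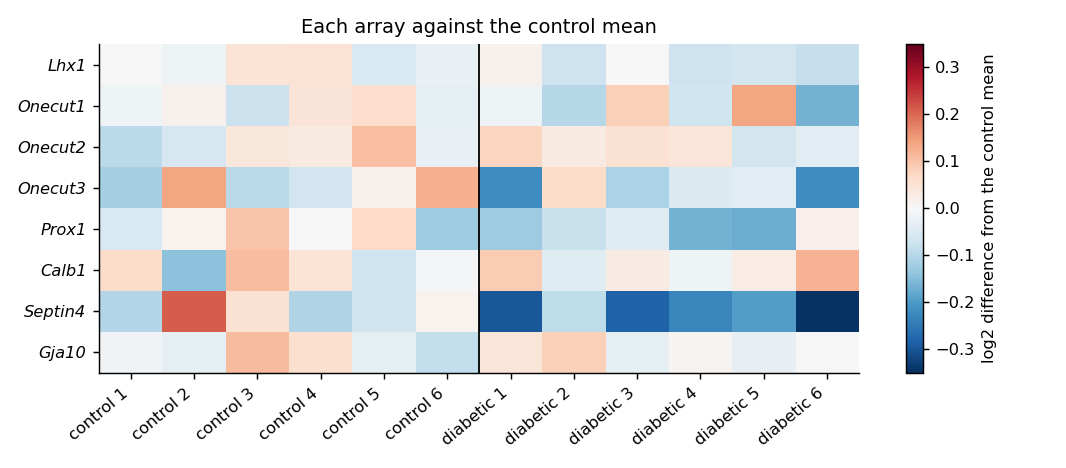
Difference of each of the 12 arrays (columns) from the control mean of the gene, in log2 units (colour, blue for lower and red for higher), for the 8 horizontal cell genes (rows). The diabetic arrays are blue throughout for Septin4 (from -0.35 to -0.09), and mixed for the other members.

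The members did not move together from array to array. Averaged over the 8, the difference from the control mean ran from -0.04 to 0.04 in controls and from -0.09 to -0.03 in diabetic retinas, and Septin4 had the largest mean difference of the 8. On single arrays 2 to 7 of the 8 were below the control mean among controls and 4 to 6 among diabetic retinas. After each group's mean was subtracted, the 28 pairs of members had correlations from -0.85 to 0.77 over the 12 arrays, with a median absolute value of 0.28. An absolute r of 0.6 or more was reached by 3 pairs, which all lie within a set of 3 genes.

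Arrays with high Onecut3 had low Calb1 (r = -0.85, Spearman's rho = -0.83; -0.81 within controls and -0.94 within diabetic retinas). They had high Septin4 (r = 0.77, rho = 0.73; 0.65 within controls and 0.95 within diabetic retinas). Calb1 and Septin4 ran against each other (r = -0.66, rho = -0.52). Without the 2 arrays farthest from the median of the first gene of each pair, r was -0.76, 0.56 and -0.71 over 10 arrays. An absolute r of 0.6 or more was common on these arrays. Of 12381 other genes with a mean at or above the array median, 13.7% reached it with Onecut3, 13.0% with Calb1 and 13.5% with Septin4. How many reached the larger values of -0.85 or 0.77 was not counted. The 3 pairs were picked for their size out of 28, and both genes of a pair were read on the same array, so the values are a description.

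**Figure D4:**
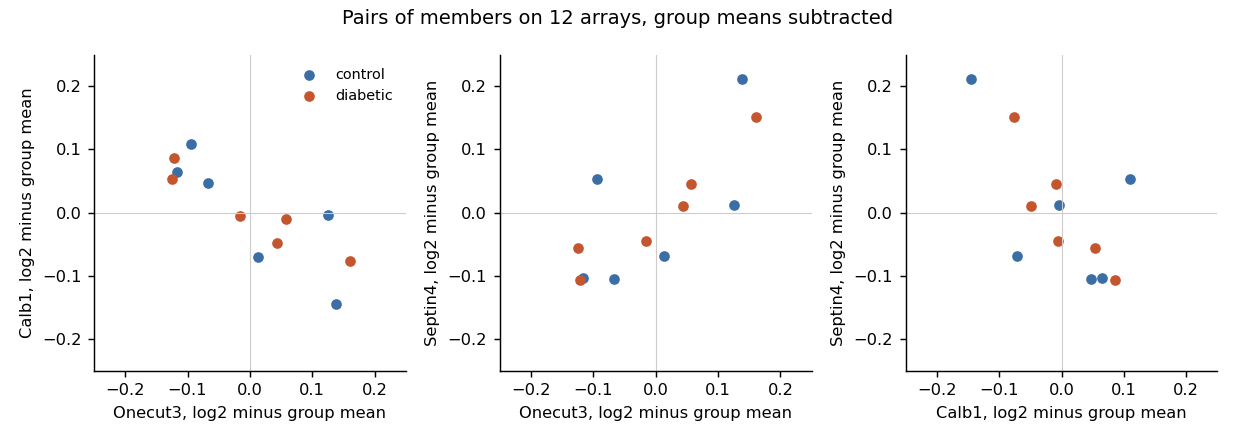
Log2 value minus the group mean for Onecut3, Calb1 and Septin4 against each other on the 12 arrays (blue control, orange diabetic). Onecut3 and Calb1 run in opposite directions in both groups (r = -0.85), and Onecut3 and Septin4 in the same direction (r = 0.77).

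The 5 genes whose pattern over the 12 arrays was most like that of Septin4, after subtraction of the group means, were Sftpa1 (r = 0.95, rho = 0.93), Syndig1 (0.95 and 0.94), Plekhf1 (0.94 and 0.87), Rilp (0.94 and 0.87) and Macroh2a3 (0.94 and 0.85). They were the closest of 12381 genes, so high values had to occur. All 5 had lower means than Septin4 (7.36), from 5.77 (Sftpa1) to 6.79 (Macroh2a3), where the array median is 5.73. Rilp, an effector of the small GTPase Rab7 on late endosomes and lysosomes, fell by 0.20 ± 0.04 between the groups (limma adjusted p = 0.0303; lost in 6 of the 12 runs without 1 array). Plekhf1 (-0.20 ± 0.05; adjusted p = 0.0532), Syndig1 (-0.20 ± 0.06; adjusted p = 0.0938), Sftpa1 (-0.11 ± 0.04; adjusted p = 0.157) and Macroh2a3 (-0.12 ± 0.12; adjusted p = 0.597) did not pass.

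Genes that act with the members in forming and wiring horizontal cells showed no call. Of 8 genes of specification (Foxn4, Ptf1a, Rorb, Tfap2a, Tfap2b, Sall3, Pax6 and Ldb1), 0 passed limma with adjustment over all genes and 1 had an unadjusted p under 0.05. That gene was Ldb1, the cofactor that binds LIM domain proteins such as Lhx1, named here after its value was seen. Its difference was 0.10 ± 0.04 (adjusted p = 0.188). The median change of the 8 was 0.0017, with 4 below 0 and 4 above. Of 9 genes of spacing, wiring and transmitter use (Megf10, Megf11, Sema6a, Plxna4, Lrrc4, Ntng2, Slc32a1, Gad1 and Gad2), 0 passed and 0 had an unadjusted p under 0.05. Their median change was -0.07, with 6 below 0 and 3 above. Tfap2a, Tfap2b, Slc32a1, Gad1 and Gad2 were also counted among the amacrine cell markers above, so these lists are not separate. The values of such genes do not speak of horizontal cells alone. Of all 17, 14 had a mean at or above the array median, where the median absolute change over all such genes was 0.07.

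Sema6a, a guidance signal for horizontal cell neurites with its receptor Plxna4, ran from 8.55 to 8.90 in controls and from 8.40 to 8.71 in diabetic retinas (-0.15 ± 0.08; adjusted p = 0.289; 95% interval -0.32 to 0.02). Lrrc4, a synaptic adhesion protein that binds netrin-G2, ran from 6.01 to 6.31 and from 6.12 to 6.40 (0.13 ± 0.06; adjusted p = 0.270; 95% interval -0.01 to 0.26). Megf11, which with Megf10 spaces neighbouring horizontal cells, ran from 6.57 to 6.91 and from 6.51 to 6.72 (-0.11 ± 0.06; adjusted p = 0.304; 95% interval -0.24 to 0.02). Gad1, which makes the inhibitory transmitter GABA, ran from 6.90 to 7.29 and from 6.79 to 7.09 (-0.10 ± 0.07; adjusted p = 0.459; 95% interval -0.26 to 0.06). The groups overlapped for each of these 4, which were named for the size of their change. The intervals of all 4 reach as far from 0 as the change of Septin4 (0.24 in size), so a change of that size was not excluded for any of them.

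**Figure D5:**
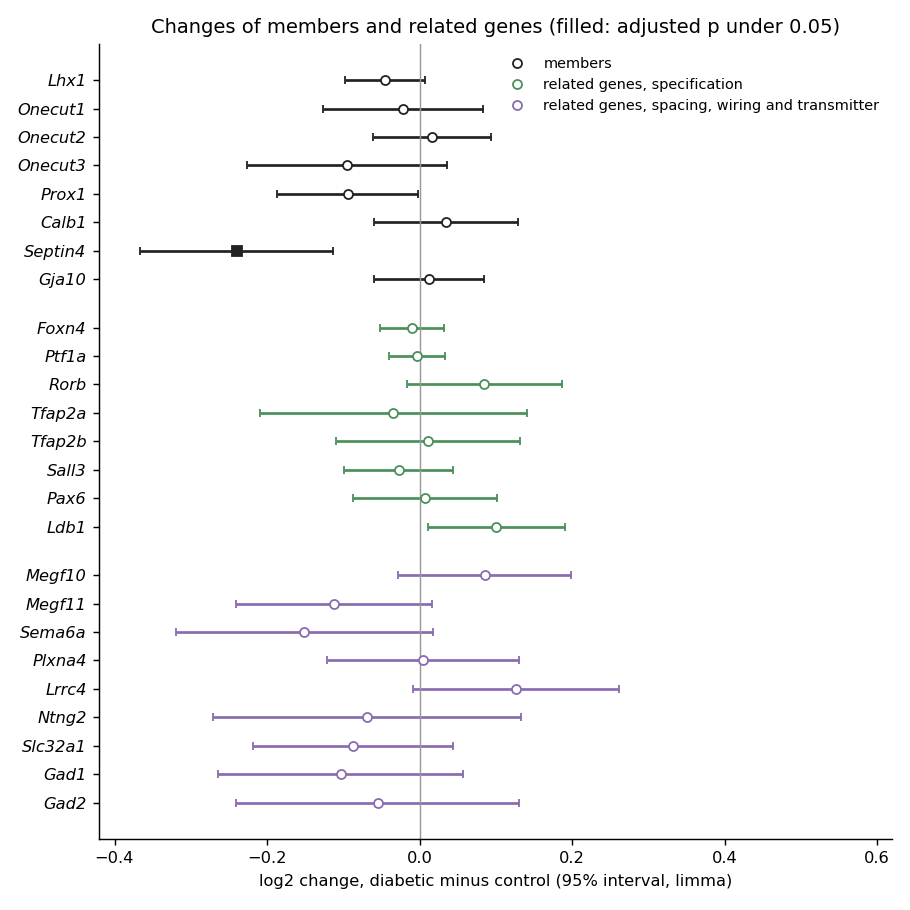
Log2 change, diabetic minus control, with its 95% interval from limma (horizontal axis) for the 8 horizontal cell genes (black), 8 genes of specification (green) and 9 of spacing, wiring and transmitter use (purple). Filled marks have an adjusted p under 0.05, which holds for Septin4 alone among the genes shown.

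The members were set beside the other genes of their families. Of 12 other septins, which assemble with each other into filaments, 0 passed limma (2 at an unadjusted p under 0.05), 9 were below 0 and 3 above, and the median change was -0.02. The other septins that differed most lay on opposite sides of 0 and did not pass. Septin2, named after its value was seen, differed by -0.14 ± 0.05 (adjusted p = 0.135). Septin11 ran from 9.45 to 9.61 in controls and from 9.57 to 9.83 in diabetic retinas, with 5 diabetic arrays above all controls (0.14 ± 0.04; adjusted p = 0.0754). Of 4 other cut domain genes, Cux1 fell by 0.13 ± 0.03 (adjusted p = 0.0310), from 8.00 to 8.11 in controls and from 7.85 to 8.00 in diabetic retinas, ranges that meet at 8.00 without overlap. This call was lost without control 1, control 3, control 6, diabetic 3, diabetic 4 and diabetic 6 (adjusted p up to 0.0620 over the 12 runs).

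Of 11 other LIM homeobox genes, 1 passed and 5 had an unadjusted p under 0.05. Their changes were below 0 in 4 and above 0 in 7, with a median of 0.01. Lhx6 fell by 0.13 ± 0.03 (adjusted p = 0.0414), with a control range from 5.85 to 6.05 and a diabetic range from 5.74 to 5.85, close to the array median. Of the 12 runs without 1 array, its call held in those without control 2, control 4 and diabetic 5, and the adjusted p rose to 0.0815 without diabetic 4. Neither Cux1 nor Lhx6 was called with the lens mean as a covariate, with the replicate block or without both arrays of highest lens level, and neither with the filter at the array median. Cux1 was also lost with the trended and robust fit, and Lhx6 with cyclic loess. The LIM homeobox gene that differed most was Lmx1b, from 6.55 to 6.90 in controls and from 6.21 to 6.53 in diabetic retinas, which did not pass (-0.28 ± 0.07; adjusted p = 0.0563) although its groups did not overlap. It was called with the replicate block, with a trended and robust fit, and with either filter on dim genes. Isl1, named after its value was seen, rose by 0.17 ± 0.04 and did not pass (limma adjusted p = 0.0524). It was called with either filter on dim genes and without control 5. Of 18 other connexins, 0 passed and 2 had an unadjusted p under 0.05, with 3 at or above the array median. Gja1, the connexin of glia, differed most (0.13 ± 0.11; adjusted p = 0.524). Diabetic 6 stood at 6.21 for Gja1, while the other diabetic arrays ran from 5.47 to 5.64, as did the controls. Of 4 relatives of calbindin, 0 passed and 2 had an unadjusted p under 0.05, with Scgn, a calcium sensor of cone bipolar cells, differing most (-0.17 ± 0.06; adjusted p = 0.146). Prox2 differed by -0.0075 ± 0.02 (adjusted p = 0.847).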

How the data were processed

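Total RNA of whole retina, dissected from snap-frozen eyes and extracted with Trizol, was hybridised as biotinylated cRNA, per the labels' protocols. The deposited table held log2 values made by the authors with RMA, per the submitters' processing notes; no source used here gives its version, the array's name or the probe sets. Sorted values were identical on all 12 arrays. Of 24973 lines, 24015 were named by the platform annotation and 559 by the RefSeq table of GRCm38.p6; 399 without a name were left out, and for 4 symbols on several lines the line of highest mean was kept. Precision is limited by the number of arrays, and detection calls were not used.

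Diabetic minus control was tested two-sided in R 4.3.3 with limma 3.58.1 (lmFit, then eBayes) on 6 arrays per group, with no filter; Benjamini-Hochberg adjusted p-values over the 24570 genes were called under 0.05. The procedure was tested on simulated data. The labels call the arrays of a group biological replicates. The rule for the members names symbols and uses no value, but it, the lists and the alternatives were written with earlier results of these data known. Named were all 8 members; the related genes past the test and the 4 of largest change; in each family those past the test and the one of largest change; markers of other cells past the test; and the 5 genes most like Septin4. Of the lists, 1 marker (of red blood cells) was not measured, and some listed genes are not reported here. Same-numbered animals of both groups had deviations that correlated from -0.16 to 0.17, over 0.1 in 1 of 6 pairs, so the numbers were not treated as pairs. Alternatives covered normalization (cyclic loess), filters on dim genes, array weights, the variance model, a replicate block, the lens level, lines per symbol, the threshold and each array left out. Leaving out both arrays of highest lens level was chosen after the data were seen. Promoter sequences were from RefSeq (GRCm38.p6).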

Additional observations from a re-analysis of the deposited data

Results flagged for a closer look

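Of 62 groups of 6 arrays (the named genes and the marker means), 2 held 1 array that stood apart, 3.23%, judged by its gap to the nearest array as a share of the group's range (critical value 0.625), where chance gives about 1 in 20. Both concern diabetic 6. Gja1, the glial connexin, was high there (ratio 0.775), at 6.21 against 5.47 to 5.64 on the other diabetic arrays. Gad1, the GABA-synthesising enzyme, was low there (ratio 0.687), at 6.79 against 7.00 to 7.09. Diabetic 6 also had the highest mean of lens markers (7.73) and of pigment epithelium markers (7.59), whose part in both values was not tested. None of the 8 horizontal cell genes had such an array in either group.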

How the results depend on the processing

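The call of Septin4 was the one member call, and it was kept with both filters on dim genes, the trended robust variance model, array weights and the replicate block (adjusted p from 0.0276 to 0.0433). With the replicate block, which is no pairing known from the labels, the change was -0.24 (adjusted p = 0.0406), while the genes called over the table fell from 797 to 506. The count of members was 0 with cyclic loess, with the lens mean as a covariate and without both arrays of highest lens level. There the change of Septin4 was -0.23 (adjusted p = 0.0537), -0.24 (0.0767) and -0.25 (0.0711). Over the table, 464 genes were called with the lens covariate, 379 without both arrays and 1967 at a threshold of 0.10. Leaving out 1 array gave 0 to 1 members, 325 to 835 genes and a Septin4 change from -0.27 to -0.20. No related gene was called under any alternative run, also at 0.10. Signs turned for 3 members with changes near 0. Onecut1 was 0.0077 with the lens covariate, 0.033 without both arrays of highest lens level, and -0.054 to 0.0066 without 1 array. Gja10 was -0.0030 without both arrays, and -0.0051 to 0.035 without 1 array. Onecut2 was -0.0020 to 0.038 without 1 array. The cause was not tested. The other 7 members had adjusted p of 0.135 or more under every alternative. Lhx1 and Gja10 have no value with the filter at the array median, below which they lie.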
